A study of Homo sapiens with 16 samples.

Results

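The smooth muscle contractile genes are the 8 genes ACTA2, TAGLN, CNN1, MYH11, LMOD1, MYL9, CALD1 and SMTN, taken by symbol from 59385 gene symbols in a table of raw read counts. All 8 passed the filter on low counts in every comparison. They were measured by RNA sequencing in cardiomyocytes differentiated from WTC-11, an established line of human induced pluripotent stem cells, between days 15 and 35 of culture. The study asked what the long noncoding RNA LINC00881 does in these cells. In the overexpression experiment, cells received a LINC00881 plasmid or a control plasmid for bacterial alkaline phosphatase (BAP). In the knockdown experiment, cells received an antisense LNA GapmeR against LINC00881 or a scrambled oligonucleotide. All 4 groups were transfected with a lipofectamine-based method, so every control also carried a transfection. Each group held 4 libraries, and nothing in the labels says whether these came from separate differentiations, so a p-value measures the spread between these libraries, which may be technical.

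LINC00881 itself followed the labels. It measured between 386 and 457 CPM (read counts scaled to library size by TMM) in LINC00881 plasmid libraries and between 83.2 and 135 CPM in BAP plasmid libraries, and between 12.1 and 28.3 CPM in GapmeR libraries and between 57.4 and 156 CPM in scrambled oligonucleotide libraries. Total counts ran from 9833533 to 16415025 per library in the overexpression experiment and from 26979162 to 37332620 in the knockdown experiment. Mitochondrial ribosomal RNA took between 0.84% and 1.14% of counts in the overexpression experiment and between 13.3% and 17.3% in the knockdown experiment. In the knockdown experiment, the first principal component, with 37.3% of the variance, placed replicates 1 and 2 of both groups on one side and replicates 3 and 4 of both groups on the other. The labels do not say what separates these sets. The 12 cardiomyocyte markers summed to between 14761 and 31005 CPM over the 16 libraries, and the 11 fibroblast markers to between 247 and 864 CPM. Of the fibroblast markers, DCN alone stayed under 1 CPM in every library. Of the 8 endothelial markers, 5 did so, the defining genes PECAM1, CDH5 and VWF among them, but KDR measured between 35.1 and 228 CPM.

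Smooth muscle contracts when calcium and calmodulin activate myosin light chain kinase, which phosphorylates the regulatory light chain of a smooth muscle myosin that pulls on actin filaments. ACTA2 encodes smooth muscle actin, MYH11 the smooth muscle myosin heavy chain and MYL9 a regulatory light chain. CNN1 (calponin), CALD1 (caldesmon) and TAGLN (transgelin, also called SM22) bind the actin filament, LMOD1 (leiomodin) nucleates it, and SMTN (smoothelin) associates with it. Many of these genes are activated by serum response factor (SRF), which binds a sequence called the CArG box, and by its coactivator myocardin. ACTA2 and TAGLN are also known from the embryonic heart, whose muscle cells express them for a time, while MYH11 is regarded as the most restricted to smooth muscle.

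Because the CArG box is the best known shared element of these genes, it was searched for in promoters, here windows of 300 bases (250 before and 50 after a RefSeq transcript start, GRCh38.p14). The motif is known by name and has 10 letters. It reads alike on both strands. RefSeq windows were matched for 5 of the 8 genes, ACTA2, CALD1, CNN1, LMOD1 and SMTN, with 12 windows in all. An exact CArG box lay in 1 of the 12 windows, a SMTN promoter, and such a match occurred in 1.29% of the 35116 windows of all genes. A match with no more than 1 letter changed lay in 6 of the 12 windows, against 18.9% of all windows. The following windows, in the direction of the gene, are shown because they hold the exact match or 2 near matches, and capitals mark these. The SMTN window lies at chr22:31084746-31085045 on the plus strand, the ACTA2 window at chr10:88952724-88953023 on the minus strand and the LMOD1 window at chr1:201946499-201946798 on the minus strand.
SMTN: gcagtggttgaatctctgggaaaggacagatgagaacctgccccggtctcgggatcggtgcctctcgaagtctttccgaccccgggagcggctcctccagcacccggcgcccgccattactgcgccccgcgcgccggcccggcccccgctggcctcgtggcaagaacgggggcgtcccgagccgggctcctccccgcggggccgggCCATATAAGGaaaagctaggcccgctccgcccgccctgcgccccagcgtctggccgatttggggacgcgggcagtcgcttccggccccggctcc
ACTA2: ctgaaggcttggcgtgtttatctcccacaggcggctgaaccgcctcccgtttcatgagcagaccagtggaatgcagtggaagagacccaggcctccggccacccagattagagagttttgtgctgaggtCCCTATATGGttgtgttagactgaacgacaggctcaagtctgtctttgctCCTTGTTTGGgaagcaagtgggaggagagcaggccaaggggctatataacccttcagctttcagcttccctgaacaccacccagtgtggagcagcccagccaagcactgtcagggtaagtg
LMOD1: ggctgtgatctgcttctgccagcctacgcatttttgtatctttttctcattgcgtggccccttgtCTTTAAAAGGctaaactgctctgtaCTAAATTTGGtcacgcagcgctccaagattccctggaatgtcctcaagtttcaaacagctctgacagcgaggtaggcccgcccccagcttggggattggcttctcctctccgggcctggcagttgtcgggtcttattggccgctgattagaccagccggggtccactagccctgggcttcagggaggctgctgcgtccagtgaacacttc
The exact match in SMTN began 44 bases before the transcript start. The near matches in ACTA2 began 121 and 71 bases before it, and those in LMOD1 185 and 160 bases before it. The only window of CNN1 held neither kind of match. A match is only a description of the letters, and counts per gene do not tell which transcript start was used.

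The genes lie on 8 different chromosomes (GRCh38, GENCODE 29): ACTA2 on chromosome 10 at 88935074 to 88991339, TAGLN on chromosome 11 at 117199321 to 117204782, CNN1 on chromosome 19 at 11538717 to 11550323, MYH11 on chromosome 16 at 15703172 to 15857033, LMOD1 on chromosome 1 at 201896452 to 201946588, MYL9 on chromosome 20 at 36541484 to 36551447, CALD1 on chromosome 7 at 134744252 to 134970728 and SMTN on chromosome 22 at 31064105 to 31104757. Reads were counted over exons without regard to strand, per the name of the table, and exons of 5 of the genes overlap other genes. For ACTA2, these are ACTA2-AS1 (516 shared bases) and FAS (380 bases), for TAGLN PCSK7 (446 bases), and for MYH11 NDE1 (765 bases) and antisense genes with fewer. LMOD1 overlaps an antisense gene by 536 bases and SMTN overlaps others by 357 and 83 bases. Reads in these stretches cannot be told apart. ACTA2-AS1 and FAS stayed under 2.5 CPM in every library, PCSK7 measured between 9.34 and 28.9 CPM and NDE1 between 3.38 and 16.5 CPM. CNN1, MYL9 and CALD1 shared no exon bases with another gene.

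Levels differed widely among the 8 genes. Values per kilobase divide by all annotated exon bases of a gene, from 2821 for MYL9 to 16104 for MYH11. Such a length can exceed that of a single transcript, and the SD between libraries does not measure this. Per kilobase of exon in the LINC00881 plasmid libraries, MYL9 (129 ± 7.68 CPM per kb, SD, n = 4) and ACTA2 (121 ± 8.94) stood highest and were within 1 SD of each other. TAGLN (52.5 ± 4.52), CNN1 (30.6 ± 2.92), CALD1 (21.5 ± 1.68) and LMOD1 (12.3 ± 0.66) followed, each separated from the next by more than their SDs. SMTN (2.05 ± 0.12) and MYH11 (1.86 ± 0.13) were lowest, and their SDs overlapped. The BAP plasmid libraries had the same order, from 120 ± 16.3 CPM per kb for MYL9 to 1.70 ± 0.19 for MYH11. In GapmeR libraries, ACTA2 stood highest at 171 ± 132 CPM per kb, above MYL9 at 54.5 ± 18.3, and in scrambled oligonucleotide libraries ACTA2 reached 182 ± 75.3 and MYL9 68.8 ± 2.90. The SD of ACTA2 in the knockdown experiment was thus a large part of its mean, as was that of MYH11 (1.53 ± 1.67 in GapmeR libraries and 1.43 ± 1.52 in scrambled oligonucleotide libraries).

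Some striated muscle paralogs were far more abundant than the smooth muscle genes and others were less so. In the LINC00881 plasmid libraries, ACTA2 measured 121 CPM per kb against 1063 ± 53.7 for cardiac actin ACTC1, MYL9 129 against 3343 ± 277 for the atrial light chain MYL7 and 9.49 ± 0.84 for MYL2, the ventricular one, and MYH11 1.86 against 802 ± 37.4 for the cardiac heavy chain MYH6 and 1190 ± 64.9 for MYH7. ACTG2, the enteric smooth muscle actin, measured 0.29 ± 0.12 CPM per kb there. LMOD1 stood at 12.3 CPM per kb against 42.6 ± 1.39 for LMOD2 and 4.13 ± 0.18 for LMOD3, leiomodins of striated muscle. Near-identical coding stretches of the actins can share reads, so the values of ACTA2 and ACTC1 carry that uncertainty.

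**Figure D1:**
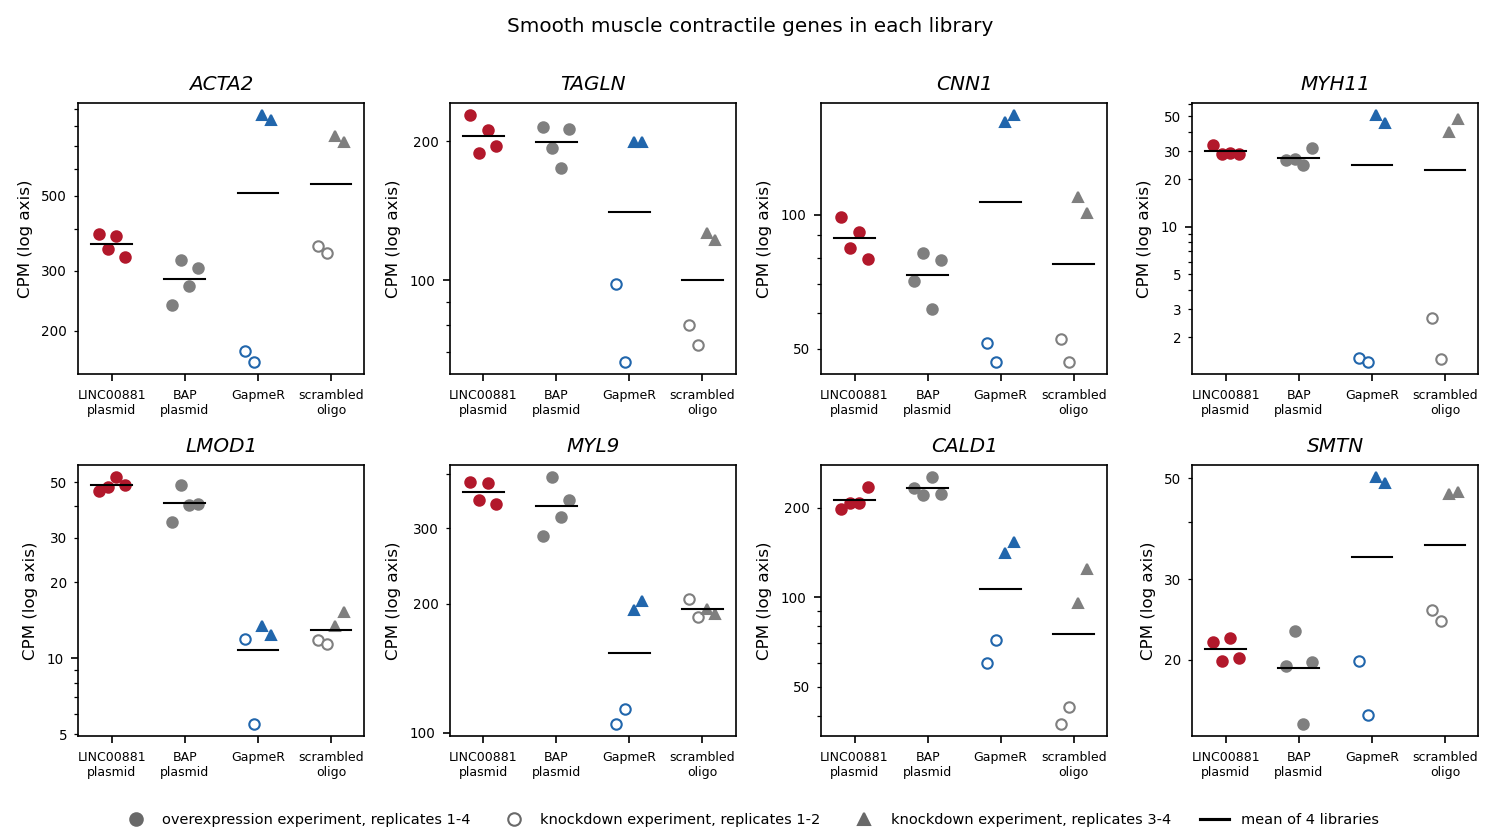
CPM of each of the 8 genes (log axis) in every library of the LINC00881 plasmid, BAP plasmid, GapmeR and scrambled oligonucleotide groups; open circles are replicates 1 and 2 and triangles replicates 3 and 4 of the knockdown experiment, and lines are means of 4 libraries. MYH11 lies between 1.40 and 2.66 CPM in the open circles and between 39.5 and 50.8 CPM in the triangles.

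LINC00881 overexpression was asked first. ACTA2, CNN1 and LMOD1 were higher in LINC00881 plasmid libraries at an unadjusted p under 0.05, the cutoff used by the study, by factors of 1.26, 1.20 and 1.17. None of the 3 passed after Benjamini-Hochberg adjustment over the 14355 genes tested with the quasi-likelihood test of edgeR. Of all genes tested, 12.1% were called at the unadjusted cutoff and 5.87% were called as higher. After adjustment LINC00881 alone passed (0.00697% of genes), and DESeq2 called 57 genes, 1 of the 8 among them.

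ACTA2 measured 384, 348, 381 and 329 CPM in LINC00881 plasmid libraries, against 238, 323, 271 and 306 CPM in BAP plasmid libraries. It was the only one of the 8 whose groups did not overlap, a property of 7.08% of all genes tested, with 3.97% higher. Its log2 fold change was 0.33 (SE 0.08, adjusted p = 0.243, edgeR). CNN1, the actin-binding calponin, measured 98.7, 84.1, 91.3 and 79.5 CPM in LINC00881 plasmid libraries, against 70.9, 81.9, 61.4 and 79.1 CPM in BAP plasmid libraries. The lowest LINC00881 plasmid library lay below the highest BAP plasmid library, and the log2 fold change was 0.26 (SE 0.09, adjusted p = 0.298, edgeR). LMOD1 measured 45.9, 48.0, 52.2 and 48.6 CPM in LINC00881 plasmid libraries, against 34.8, 48.6, 40.6 and 41.1 CPM in BAP plasmid libraries. Here a single BAP plasmid library, replicate 2, reached the LINC00881 plasmid values, and the log2 fold change was 0.23 (SE 0.09, adjusted p = 0.34, edgeR). Without BAP plasmid replicate 1 (0.14) or LINC00881 plasmid replicate 3 (0.19), LMOD1 no longer passed the unadjusted cutoff.

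The other 5 genes did not pass. MYL9 had a log2 fold change of 0.10 (SE 0.08), MYH11 of 0.12 (SE 0.09), SMTN of 0.12 (SE 0.11) and TAGLN of 0.04 (SE 0.08). CALD1 was the only gene with a negative value, -0.14 (SE 0.07, adjusted p = 0.443, edgeR), with 198 to 236 CPM in LINC00881 plasmid libraries against 221 to 253 CPM in BAP plasmid libraries. The median over the 8 genes was 0.12, beside 0.0033 over all genes tested. In a fit of all 16 libraries, which pools the wider spread of the knockdown experiment, none of the 8 passed. Without BAP plasmid replicate 2, 6 passed, with MYL9 (0.19) and SMTN (0.23) added as higher and CALD1 (-0.16) as lower. Leaving out this library also raised the number of all genes called. With offsets for gene length and GC content, LMOD1 was lost (0.15) and CALD1 passed as lower (-0.11). In that fit TAGLN, MYH11, MYL9 and SMTN also turned slightly negative, so most of the 8 genes were not higher there.

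Sums of cardiomyocyte and fibroblast markers were also higher in LINC00881 plasmid libraries. The 12 cardiomyocyte markers summed to between 28211 and 31005 CPM in LINC00881 plasmid libraries, against 25170 to 27962 CPM in BAP plasmid libraries, and the 11 fibroblast markers to between 800 and 864 CPM against 712 to 791 CPM. The 11 pericyte markers overlapped, with 358 to 367 CPM in LINC00881 plasmid libraries against 347 to 421 CPM in BAP plasmid libraries. Of the 12 cardiomyocyte markers, 4 were called as higher and 1 as lower. Of the 9 fibroblast markers tested, 3 were called as higher. None passed after adjustment, and 5.87% of all genes were called as higher. MYH6 and TTN made up most of the rise in the cardiomyocyte sum, and FN1 most of that in the fibroblast sum. Mean MYL2 fell from 15.2 to 12.9 CPM. The part of these classes in the values of ACTA2, CNN1 and LMOD1 was not tested. In bulk RNA, more cells of a type and more RNA per cell cannot be told apart.

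**Figure D2:**
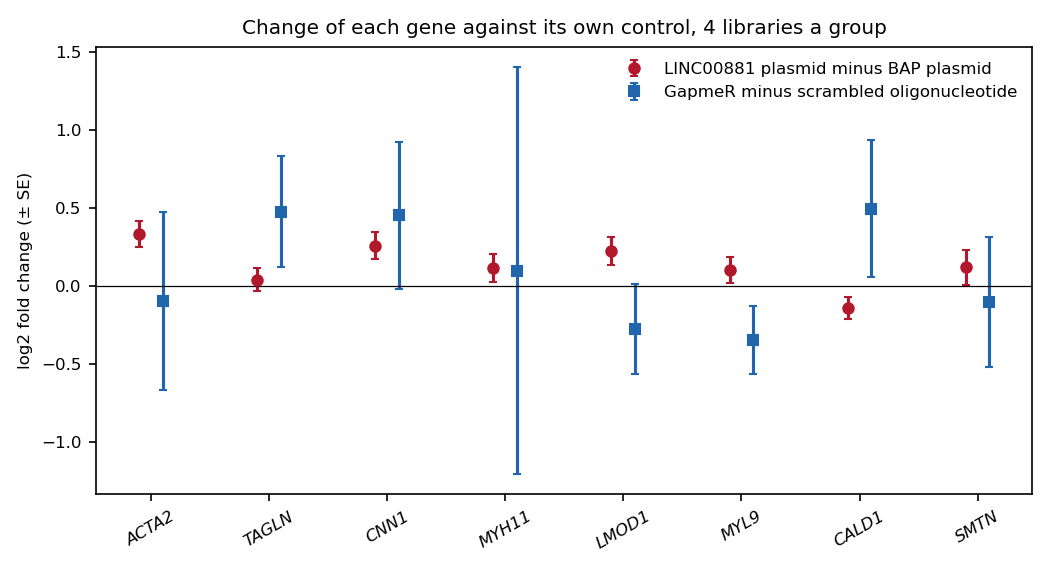
log2 fold change (± SE) of each gene, LINC00881 plasmid minus BAP plasmid (circles) and GapmeR minus scrambled oligonucleotide (squares), 4 libraries a group. The SEs lie between 0.07 and 0.11 in the overexpression experiment and between 0.22 and 1.31 in the knockdown experiment.

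Over all 4 GapmeR and 4 scrambled oligonucleotide libraries, none of the 8 genes passed, where 8.35% of the 18127 genes tested did at the unadjusted cutoff (edgeR). No gene of the table passed after adjustment, and DESeq2 called 194 genes but none of the 8. TAGLN (0.48, SE 0.36), CNN1 (0.45, SE 0.47) and CALD1 (0.50, SE 0.44) had positive log2 fold changes, and MYL9 (-0.35, SE 0.22) and LMOD1 (-0.28, SE 0.29) negative ones. ACTA2 (-0.10, SE 0.57), SMTN (-0.10, SE 0.42) and MYH11 (0.10, SE 1.31) were close to 0. With the replicate number as a block, 1 of the 8 passed, CALD1, which was higher in GapmeR libraries by 0.56 on the log2 scale (SE 0.12) at the unadjusted cutoff. With a term for the set of replicates, 3 passed, TAGLN (0.38) and CALD1 (0.55) as higher and MYL9 (-0.41) as lower. Without GapmeR replicate 2, TAGLN passed (0.71), and without GapmeR replicate 4, MYL9 passed (-0.51). The overexpression effect minus the knockdown effect passed the unadjusted cutoff for none of the 8 genes, in edgeR or in DESeq2, where 11.1% of 17782 genes passed. With a term for the set, 3 of the 8 differed, ACTA2 (0.76), MYL9 (0.51) and CALD1 (-0.70), and more of all genes were called than the 11.1% without it.

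Larger differences lay between the sets of replicates in the knockdown experiment. In replicates 1 and 2, MYH11 was lower by a factor of 26.7 than in replicates 3 and 4, ACTA2 by 3.29, CNN1 by 2.67, CALD1 by 2.48, SMTN by 2.30, TAGLN by 1.99 and MYL9 by 1.34. These 7 of the 8 genes were called as lower, where 17.8% of all genes tested were called as lower and 34.3% in either direction. All 7 also passed after adjustment (edgeR), beside 10.1% of all genes as lower and 19.4% in either direction. LMOD1 did not pass. The median log2 difference of the 8 genes was -1.26, beside -0.014 over all genes tested. Because the division was seen in these same libraries, the tests give the size of the difference and are not independent evidence that the sets differ.

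MYH11 measured 1.49 and 1.40 CPM in GapmeR replicates 1 and 2 and 2.66 and 1.47 CPM in scrambled oligonucleotide replicates 1 and 2, from 43 to 83 reads a library. In replicates 3 and 4 it measured 50.8 and 45.1 CPM in GapmeR libraries and 39.5 and 48.3 CPM in scrambled oligonucleotide libraries, from 1336 to 1635 reads. The gap held in each arm, and the log2 difference of -4.74 (SE 0.22, adjusted p = 1.73e-05, edgeR) ran from -4.97 to -4.54 as each library was left out. NDE1, which overlaps MYH11 on the other strand, had a log2 difference of -0.44 (SE 0.21). ACTA2 measured 174 and 162 CPM in GapmeR replicates 1 and 2, against 864 and 836 CPM in GapmeR replicates 3 and 4. In scrambled oligonucleotide libraries it measured 356 and 338 CPM in replicates 1 and 2, against 750.3 and 718 CPM in replicates 3 and 4. The sets did not overlap, and the log2 difference was -1.72 (SE 0.07, adjusted p = 1.23e-05, edgeR).

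The actin-binding genes showed smaller gaps. CNN1 measured between 46.7 and 52.6 CPM in replicates 1 and 2, against 101 to 167 CPM in replicates 3 and 4, a log2 difference of -1.42 (SE 0.09). CALD1 measured between 37.5 and 71.7 CPM in replicates 1 and 2, against 95.5 to 154 CPM in replicates 3 and 4 (-1.31, SE 0.12). SMTN measured between 15.1 and 25.7 CPM in replicates 1 and 2, against 46.1 to 50.2 CPM in replicates 3 and 4 (-1.20, SE 0.12). TAGLN had the smallest gap of these, -0.99 (SE 0.12), with 66.6 to 98.4 CPM in replicates 1 and 2 against 122 to 199 CPM in replicates 3 and 4. None of these 4 genes had overlapping sets, a property of 18.3% of all genes tested, with 8.99% lower. LMOD1 (-0.45, SE 0.24, adjusted p = 0.224, edgeR) also had sets that did not overlap, with 5.50 to 11.9 CPM in replicates 1 and 2 against 12.4 to 15.3 CPM in replicates 3 and 4, but the test was not passed. Its lowest value came from GapmeR replicate 2, and without GapmeR replicate 1 the difference was -0.77 and passed.

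Within the scrambled oligonucleotide libraries alone, without any GapmeR, 6 of the 8 genes were lower in replicates 1 and 2, where 24.7% of all genes were called and 13.5% as lower. MYL9 was the gene that did not follow. Its log2 difference between the sets was 0.03 (SE 0.11) in scrambled oligonucleotide libraries, with 205 and 186 CPM in replicates 1 and 2 against 195 and 189 CPM in replicates 3 and 4. Within the GapmeR libraries it was -0.87 (SE 0.11, adjusted p = 0.00237, edgeR). LMOD1 was not called in either arm, and 7 of the 8 genes were lower in GapmeR replicates 1 and 2, where 32.7% of all genes were called and 16.4% as lower.

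**Figure D3:**
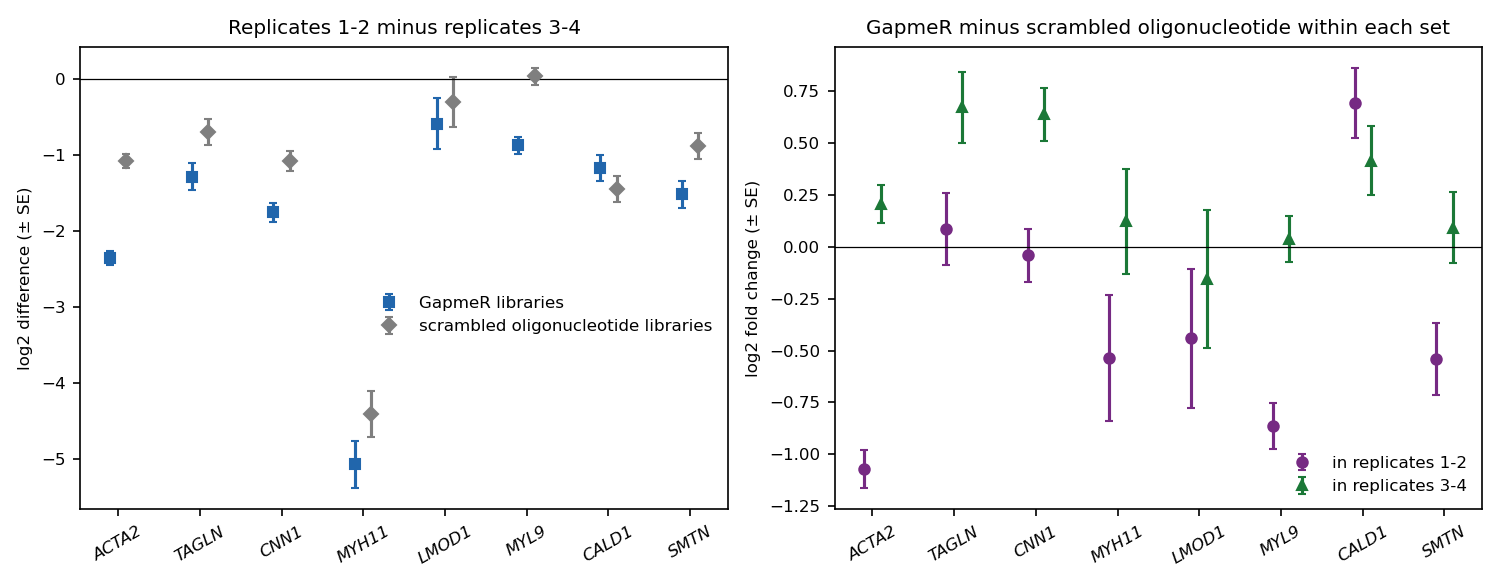
Left, log2 difference (± SE) of each gene between replicates 1-2 and replicates 3-4, in GapmeR libraries (squares) and scrambled oligonucleotide libraries (diamonds); right, log2 fold change (± SE) of GapmeR against scrambled oligonucleotide in replicates 1-2 (circles) and in replicates 3-4 (triangles), 2 libraries a point and arm. MYL9 is at -0.87 in GapmeR and 0.03 in scrambled oligonucleotide libraries on the left, and ACTA2 is at -1.07 and 0.21 on the right.

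The knockdown effect itself differed between the sets. For 5 of the 8 genes it was more negative in replicates 1 and 2 than in replicates 3 and 4 at the unadjusted cutoff, where 22.7% of all genes differed and 11.3% in this direction. ACTA2 (-1.28, SE 0.13, adjusted p = 0.0035, edgeR) and MYL9 (-0.90, SE 0.16, adjusted p = 0.0171, edgeR) also passed after adjustment, as did 5.67% of all genes. CNN1 (-0.68, SE 0.18), SMTN (-0.63, SE 0.24) and TAGLN (-0.59, SE 0.24) passed only before it. MYH11 (-0.66, SE 0.40), LMOD1 (-0.28, SE 0.47) and CALD1 (0.28, SE 0.24) did not pass. The calls of SMTN and TAGLN were lost when any of the 4 scrambled oligonucleotide libraries or GapmeR replicates 3 or 4 was left out, and the number of genes called ran from 3 to 6. Over the same 8 omissions, the adjusted p of ACTA2 ran from 0.000209 to 0.041 and that of MYL9 from 0.00155 to 0.108 (edgeR), above 0.05 without any scrambled oligonucleotide library or without GapmeR replicates 3 or 4.

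In replicates 1 and 2, where 27.1% of all genes were called, 13.7% as lower and 13.4% as higher, the GapmeR lowered ACTA2 by 1.07 on the log2 scale (SE 0.09, adjusted p = 0.00255, edgeR). MYL9 measured 105 and 114 CPM in GapmeR libraries of this set, against 205 and 186 CPM in scrambled oligonucleotide libraries, and fell by 0.86 on the log2 scale (SE 0.11, adjusted p = 0.00711, edgeR). SMTN (-0.54, SE 0.17) passed only before adjustment. CALD1 rose, with 60.1 and 71.7 CPM in GapmeR libraries against 37.5 and 42.7 CPM in scrambled oligonucleotide libraries (0.69, SE 0.17, adjusted p = 0.0396, edgeR). After adjustment 9.64% of all genes were called in this set. Fitted on the 4 libraries of this set alone, ACTA2, MYL9 and CALD1 passed before adjustment only. In replicates 3 and 4, where 15.2% of all genes were called and 6.95% as higher, TAGLN (0.67, SE 0.17), CNN1 (0.64, SE 0.13) and CALD1 (0.42, SE 0.17) rose at the unadjusted cutoff and none of the 8 passed after adjustment, beside 1.38% of all genes. TAGLN measured 199.3 and 198.9 CPM in GapmeR libraries of this set, against 126 and 122 CPM in scrambled oligonucleotide libraries. Fitted on the 4 libraries of this set alone, TAGLN (0.70), CNN1 (0.66) and ACTA2 (0.23) passed after adjustment. That fit also called many more of all genes after adjustment than the 1.38% above. CNN1 measured 161 and 167 CPM in GapmeR libraries of this set, against 110 and 101 CPM in scrambled oligonucleotide libraries. CALD1 was thus the only one of the 8 called as higher in both sets. LINC00881 fell in both, with log2 fold changes of -2.85 (SE 0.35) in replicates 1 and 2 and -1.40 (SE 0.33) in replicates 3 and 4, and the difference of -1.45 (SE 0.46) passed the unadjusted cutoff only. Between the sets, replicates 1-2 minus 3-4, LINC00881 differed by 1.32 (SE 0.33) in scrambled oligonucleotide libraries and by -0.13 (SE 0.33) in GapmeR libraries. The unequal falls thus lay mostly in the control levels.

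Genes that work with the contractile apparatus were followed as a list of 35 kinases, phosphatase subunits, tropomyosins and adhesion proteins, 34 of which were tested. Under overexpression, 5 were higher and 1 was lower, none after adjustment, where 12.1% of all genes were called and 5.87% as higher, and the list's median of 0.02 was beside 0.0033 over all genes. The actin crosslinker ACTN1 (0.21, SE 0.07), PDLIM7 (0.21, SE 0.10) and the tropomyosin TPM2 (0.18, SE 0.09) were among the higher, and the kinase ROCK1 (-0.19, SE 0.07) was the lower. Under knockdown, 3 were lower and none was higher, with PDLIM5 (-0.45, SE 0.15) and the kinase ROCK2 (-0.32, SE 0.13) among them, none after adjustment. That count was near the 8.35% of all genes called.

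Between the sets, 19 of the 34 were lower and 1 was higher in replicates 1 and 2, where 17.8% of all genes were called as lower and 34.3% in either direction, with a median of -0.51. Myosin light chain kinase MYLK measured 1.74 and 2.02 CPM in GapmeR replicates 1 and 2 and 3.79 and 3.29 CPM in scrambled oligonucleotide replicates 1 and 2. In replicates 3 and 4 it measured 19.9 and 18.8 CPM in GapmeR libraries and 9.28 and 12.3 CPM in scrambled oligonucleotide libraries, so the log2 difference between the sets was -2.49 (SE 0.19, adjusted p = 0.000151, edgeR). PPP1R12B, a targeting subunit of myosin phosphatase, differed by -1.51 (SE 0.10), the nonmuscle heavy chain MYH10 by -0.76 (SE 0.07) and TPM2 by -0.66 (SE 0.07). The knockdown effect differed between the sets for 18 of the 34, more negative in replicates 1 and 2 for 15 of them, where 22.7% of all genes differed and 11.3% in this direction. PPP1R12B (-1.23, SE 0.19), TPM1 (-0.85, SE 0.15) and the integrin subunit ITGB1 (-0.82, SE 0.13) were such genes, while the filamin gene FLNA went the other way (2.50, SE 0.35). FLNA measured 153 and 84.5 CPM in GapmeR replicates 1 and 2, against 67.8 and 53.0 CPM in their scrambled oligonucleotide libraries. In replicates 3 and 4 it measured 145 and 139 CPM in GapmeR libraries, against 422 and 408 CPM in scrambled oligonucleotide libraries. FLNA was thus higher with the GapmeR in 1 set and lower with it in the other.

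The regulators that act on these genes, a list of 28 around SRF, myocardin and transforming growth factor beta, were read beside them. SRF was higher under overexpression, with 150.6, 137, 154 and 143 CPM in LINC00881 plasmid libraries against 122, 137, 116 and 134 CPM in BAP plasmid libraries (0.19, SE 0.07, adjusted p = 0.32, edgeR). TGFB1I1, a coactivator also known as Hic-5, was higher as well (0.20, SE 0.08), and these were the only 2 of the 27 tested that were called, a share below the 12.1% of all genes. Under knockdown, the LIM protein FHL2 (-1.12, SE 0.27) and the factor TEAD1 (-0.36, SE 0.13) were lower and the ligand TGFB2 (0.34, SE 0.13) was higher, none after adjustment, where 8.35% of all genes were called. Between the sets, 8 of the 28 were lower and 6 were higher in replicates 1 and 2, where 17.8% of all genes were called as lower and 34.3% in either direction, with a median of 0.02. FHL1 (-1.35, SE 0.08) and the receptor NOTCH3 (-1.30, SE 0.29) were lower, and FHL2 (0.51, SE 0.11) and the Notch target HEY2 (1.98, SE 0.21) were higher. Myocardin (MYOCD) was not called between the sets (0.09, SE 0.11). It measured 64.8 and 84.3 CPM in GapmeR replicates 1 and 2 and 110 and 114 CPM in scrambled oligonucleotide replicates 1 and 2, against 96.8 and 83.4 CPM in GapmeR replicates 3 and 4 and 76.9 and 84.8 CPM in scrambled oligonucleotide replicates 3 and 4. The knockdown effect on MYOCD was more negative in replicates 1 and 2 (-0.76, SE 0.23), as was that on FHL2 (-1.06, SE 0.22), TGFBR2 (-1.12, SE 0.32) and CSRP2 (-0.55, SE 0.17), of which FHL2 alone passed after adjustment.

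Paralogs of the 8 genes were a list of 21, of which 19 were tested. Under overexpression, where 12.1% of all genes were called, 3 were higher, the cardiac genes MYH6 (0.36, SE 0.07) and ACTC1 (0.31, SE 0.09) and the nonmuscle calponin CNN2 (0.30, SE 0.07), and 3 were lower, among them the light chain MYL12B (-0.18, SE 0.07), none after adjustment. ACTC1 measured 5010, 4889, 5117 and 4548 CPM in LINC00881 plasmid libraries, against 3567, 4765, 3357 and 4021 CPM in BAP plasmid libraries. The log2 changes of ACTA2 (0.33) and ACTC1 (0.31) were thus within their SEs of each other. Under knockdown, CNN3 (0.49, SE 0.15) was higher and MYH6 (-0.59, SE 0.24) and MYL7 (-0.37, SE 0.16) were lower, none after adjustment, where 8.35% of all genes were called.

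Between the sets, 12 of the 19 paralogs were lower and 4 were higher in replicates 1 and 2, where 17.8% of all genes were called as lower and 34.3% in either direction. MYH7 (-1.21, SE 0.09) and CNN2 (-1.14, SE 0.09) were lower, as were MYH11 and CNN1, whereas the other cardiac heavy chain, MYH6, was higher (0.59, SE 0.14). ACTC1 was higher by 0.74 (SE 0.06), opposite to ACTA2. It measured 8588 and 9015 CPM in GapmeR replicates 1 and 2 and 16642 and 15240 CPM in scrambled oligonucleotide replicates 1 and 2, against 7091 and 6631 CPM in GapmeR replicates 3 and 4 and 7307 and 7169 CPM in scrambled oligonucleotide replicates 3 and 4. Within replicates 1 and 2, the log2 fold change was -1.07 for ACTA2 beside -0.88 (SE 0.08) for ACTC1, and -0.86 for MYL9 beside -0.77 (SE 0.11) for MYL7. Within replicates 3 and 4, the values were -0.08 (SE 0.08) for ACTC1 and 0.04 (SE 0.11) for MYL7. The differences between the sets in the knockdown effect were -0.80 (SE 0.11) for ACTC1, -0.81 (SE 0.15) for MYL7 and -1.14 (SE 0.18) for MYH7, and all 3 passed after adjustment (edgeR). ACTG2 also passed (-5.81), at no more than 0.3 CPM per kb on average in any group, and is too low to read.

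Markers of other cells were read beside the contractile genes in the same libraries. The 8 endothelial markers summed to between 89.7 and 139 CPM in replicates 1 and 2, against 46.2 to 63.9 CPM in replicates 3 and 4, and KDR made up most of that sum while 5 of the 8 stayed under 1 CPM in every library. The 10 hepatic and endodermal markers summed to between 119 and 195 CPM in replicates 1 and 2, against 201 to 231 CPM in replicates 3 and 4. Of the 9 tested, 6 were lower in replicates 1 and 2, also after adjustment, beside 10.1% of all genes. Their median log2 difference was -1.21, close to the -1.26 of the contractile genes. FOXA2, among the 9 tested, stayed under 1 CPM in every library, and its difference between the sets is too low to read. EPCAM alone was higher, with 44.3 to 87.2 CPM in replicates 1 and 2 against 11.1 to 19.2 CPM in replicates 3 and 4. The sums of the 11 pericyte markers (218 to 406 CPM in replicates 1 and 2 against 290.1 to 386 CPM in replicates 3 and 4), the 11 fibroblast markers (247 to 386 CPM against 248 to 338 CPM) and the 12 cardiomyocyte markers (14761 to 22834 CPM against 19877 to 22525 CPM) overlapped between the sets. Of the pericyte markers, 4 of 7 tested were lower and none was higher in replicates 1 and 2, where 17.8% of all genes were called as lower. Their median log2 difference was -0.73, so the overlapping sum does not show how most of these markers moved. RGS5 made up most of the pericyte sum in every library, with 131 to 305 CPM in replicates 1 and 2 against 177 to 230 CPM in replicates 3 and 4. Of the fibroblast markers, 4 of 10 tested were lower, among them FN1 (-1.75, SE 0.22), FBN1 (-2.23, SE 0.36) and COL3A1 (-1.30, SE 0.22), and 4 were higher, among them COL1A2 (3.02, SE 0.28) and PDGFRA (0.96, SE 0.14), so the overlapping sum held members that moved in opposite directions. Of the 12 cardiomyocyte markers, 5 were lower and 3 were higher in replicates 1 and 2, where 34.3% of all genes were called in either direction. Their sum in replicates 1 and 2 was 14761 and 15942 CPM in GapmeR libraries, against 22834 and 22001 CPM in scrambled oligonucleotide libraries. With the GapmeR in that set, 8 of the 12 were called as lower, where 13.7% of all genes were. In replicates 3 and 4, 4 were called as lower and 1 as higher, where 15.2% of all genes were called. The 8 contractile genes summed to between 483 and 772 CPM in replicates 1 and 2, against 1365 to 1672 CPM in replicates 3 and 4. Mitochondrial ribosomal RNA took between 14.8% and 17.3% of counts in replicates 1 and 2, against 13.3% to 14.4% in replicates 3 and 4. The part of these markers and of this RNA in the values of the contractile genes was not tested.

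**Figure D4:**
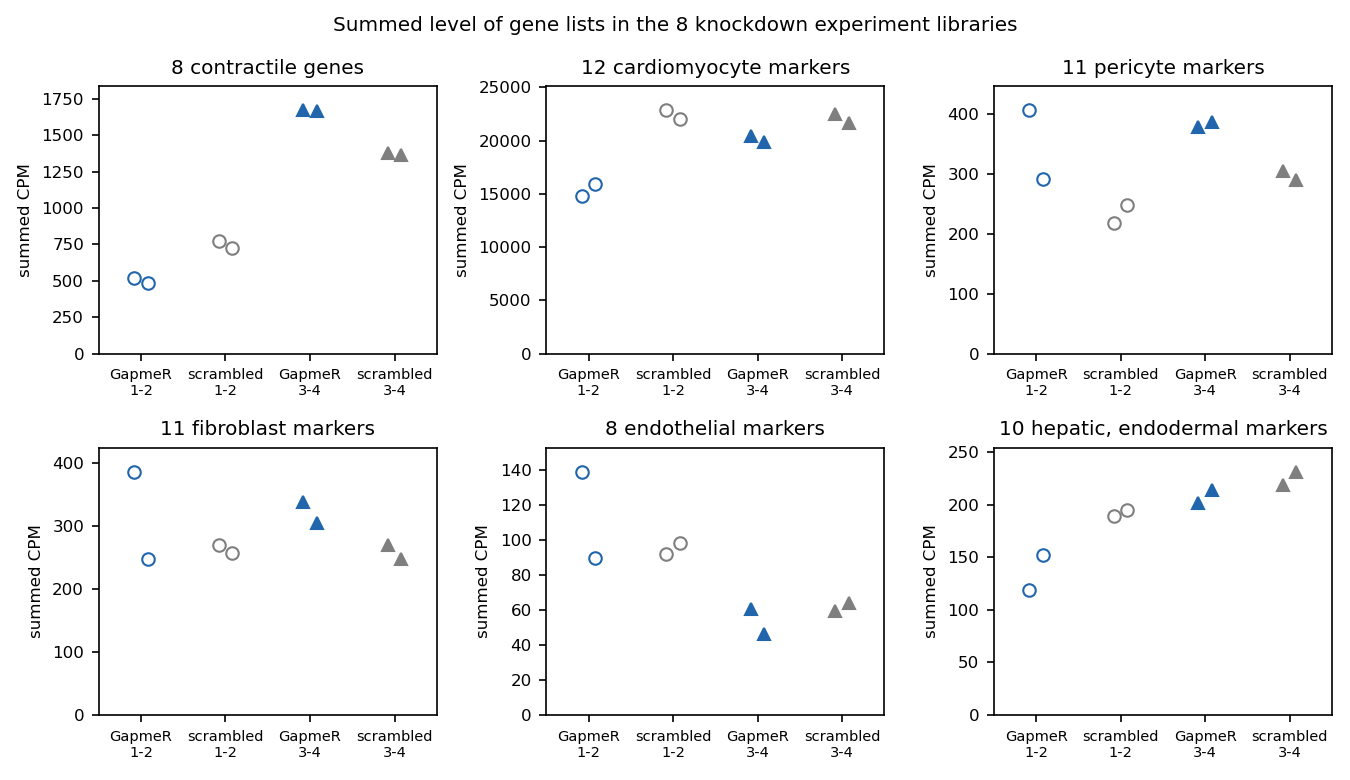
Summed CPM of 6 gene lists in the 8 knockdown experiment libraries, 2 GapmeR and 2 scrambled oligonucleotide libraries in replicates 1-2 (open circles) and in replicates 3-4 (triangles), axes from 0. The contractile genes reach 772 CPM at most in replicates 1-2 and 1365 CPM at least in replicates 3-4. The hepatic and endodermal sums lie lower in replicates 1-2 as well, and the endothelial sums lie higher. The pericyte, fibroblast and cardiomyocyte sums overlap between the sets, and RGS5 makes up most of each pericyte sum.

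Among genes of at least 10 CPM on average in both experiments, the profiles most like the mean profile of the 8 genes over the 16 libraries were those of VASH1, LMO2, CDH11, PXDN and SGSM2. Likeness was the root mean square difference of centred log2 CPM, which ran from 0.16 for VASH1 to 0.23 for SGSM2. Of the 8 genes themselves, TAGLN (0.25) lay closest to their mean and MYH11 (1.11) farthest. VASH1, which encodes the tubulin carboxypeptidase vasohibin, measured 6.36 and 6.86 CPM in GapmeR replicates 1 and 2 and 7.32 and 9.12 CPM in scrambled oligonucleotide replicates 1 and 2. In replicates 3 and 4 it measured 26.9 and 27.98 CPM in GapmeR libraries and 21.4 and 23.5 CPM in scrambled oligonucleotide libraries. The set of replicates made up most of this mean profile, and the 16 values share their library and experiment.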

How the data were processed

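RNA-seq was analysed in 16 libraries. The authors deposited raw read counts per gene symbol. They aligned paired reads with STAR 2.7.3a, per the submitters' processing notes, and counted them with featureCounts without strand, per the name of the table, although the library kit is stranded. The version of featureCounts is not given in the sources used here. Of the symbols, 40094 of 59385 (67.5%) had a position in GENCODE 29. Counts were fitted with edgeR 4.0.16 in R 4.3.3 (filterByExpr, TMM scaling, robust quasi-likelihood test), each experiment alone, with Benjamini-Hochberg adjustment over all genes tested. The difference between the 2 experiments was taken from a fit of all 16 libraries. The sets of replicates and their interaction with the GapmeR were fitted in the 8 knockdown libraries. A gene was called at an unadjusted p under 0.05, and adjusted values are given beside it. Printed CPM values were TMM-scaled over all 16 libraries. Alternatives were DESeq2 1.42.0, its size factors, all genes with at least 1 count, offsets for length and GC content, a replicate block, a set term and leaving out each library. Same-numbered knockdown libraries deviated together (r = 0.15, 0.15, 0.23 and 0.14), which the block uses, but libraries of other numbers in the same set did so as much (0.17 for GapmeR replicate 1 with scrambled replicate 2, 0.22 for GapmeR replicate 3 with scrambled replicate 4). The 8 genes and the lists were chosen with earlier results of these data known. Named genes of a list were, per comparison, the 4 with the smallest p under 0.05 among those of at least 1 CPM on average, and 1 gene that this rule names is not reported here. No pair of libraries of a group agreed within sampling noise. Sums, ratios of levels and the marker lists carry no test.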

Additional observations from a re-analysis of the deposited data

Results flagged for a closer look

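MYH11 measured 33.05 CPM in LINC00881 plasmid replicate 1, apart from the other 3 LINC00881 plasmid libraries at 28.8, 29.2 and 28.7 CPM. The gap was 0.89 of the group's range, above Dixon's critical value. It was 1 of 32 groups of 4 libraries examined, and chance takes about 5% of groups past that value.

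The knockdown effect differed between replicates 1 and 2 and replicates 3 and 4 for 2 of the 8 genes after adjustment in edgeR. The difference was -1.28 on the log2 scale for ACTA2 and -0.90 for MYL9. Both genes were lower with the GapmeR in replicates 1 and 2, in 2 of 2 libraries, and neither was called in replicates 3 and 4 (0.21 for ACTA2 and 0.04 for MYL9). Fitted on replicates 3 and 4 alone, however, ACTA2 was higher with the GapmeR (0.23, adjusted p = 0.0495, edgeR).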

How the results depend on the processing

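Of 28 counts of genes called under settings other than leaving out a library, 22 stayed within 1.5 times the reported count or on its side of 0. The exceptions were as follows. Under overexpression, 0 of the 8 genes were called in a fit of all 16 libraries, where 147 of all genes were called instead of 1737. Under knockdown, 1 was called with a replicate block, 3 with a term for the set, 3 in replicates 1 and 2 alone and 4 in replicates 3 and 4 alone. The difference between the experiments was called for 3 genes with a term for the set. Leaving out each library in turn gave 2 to 6 genes called under overexpression, 0 to 1 under knockdown, 7 to 8 between the sets, 3 to 6 for the knockdown effect between the sets and 0 to 1 for the difference between the experiments. The cause was not tested, and neither was the part of fewer libraries or of a wider pooled spread.

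The overexpression numbers did not pair the libraries (same-number r = 0.06, 0.16, -0.10 and 0.04). With the replicate block, 3 of the 8 genes were called under overexpression, and 1920 of all genes instead of 1737. Without BAP plasmid replicate 2, 2611 were called, without BAP plasmid replicate 3, 1067, without LINC00881 plasmid replicate 1, 1143, and without replicate 3, 1014. Under knockdown 1514 genes were called, against 2611 with all genes of at least 1 count, 3342 in a fit of all 16 libraries, 2504 with a set term and 3376 and 5034 in each set alone. Between the experiments 2974 were called with a set term instead of 1974, and the knockdown effect differed between the sets for 6360 genes without GapmeR replicate 2 instead of 4123. After adjustment, DESeq2 called 57 genes instead of 1 under overexpression, 194 instead of 0 under knockdown, 2331 instead of 1027 for the knockdown effect between the sets and 389 instead of 17 between the experiments. The replicate block called 7 under overexpression and a set term 499 between the experiments. With all genes of at least 1 count, 56 were called under overexpression and 2775 for the knockdown effect between the sets, and a fit of all 16 libraries called 0 under overexpression and 555 under knockdown, and replicates 3 and 4 alone 2050.

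Directions turned only for values that the reported fits had not called. With offsets for length and GC content, the overexpression values became -0.05 for TAGLN, -0.01 for MYH11, -0.01 for MYL9 and -0.02 for SMTN, the knockdown value of SMTN 0.08, and the difference between the experiments -0.49 for MYH11 and -0.09 for SMTN. The knockdown value of MYH11 was -0.14 with the replicate block, -0.16 with a set term and -0.54 in replicates 1 and 2 alone, where CNN1 was -0.03. In replicates 3 and 4 alone, ACTA2 was 0.23, which passed, MYL9 0.06 and SMTN 0.12. With all genes of at least 1 count, the difference between the experiments was -0.06 for MYH11. Leaving out a library moved the knockdown value of ACTA2 between -0.48 and 0.20, of MYH11 between -0.53 and 0.75 and of SMTN between -0.37 and 0.14, the overexpression value of TAGLN between -0.02 and 0.08, the difference of the knockdown effect between the sets for LMOD1 between -0.96 and 0.15, and the difference between the experiments for MYH11 between -0.63 and 0.64, SMTN between -0.06 and 0.48 and CNN1 between -0.49 and 0.10.

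With 2 libraries a set and arm, effects within sets rest on few values. Depth did not limit the 8 genes beyond MYH11, which had 43 to 83 reads a library in replicates 1 and 2.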

Other observations

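Levels of the 8 genes and of their regulators differed between the experiments, which also differ in depth, transfected agent and share of mitochondrial ribosomal RNA, so the experiment and these features cannot be told apart. MYOCD measured between 484 and 568 CPM in the overexpression experiment and between 64.8 and 114 CPM in the knockdown experiment. LMOD1 measured between 34.8 and 52.2 CPM in the overexpression experiment and between 5.50 and 15.3 CPM in the knockdown experiment. The intermediate filament gene DES ran the other way, with 2.46 to 3.67 CPM in the overexpression experiment and 13.4 to 42.6 CPM in the knockdown experiment. These genes were chosen after their values were seen. For each of them, no library of one experiment reached the range of the other.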
